A study of Mus musculus with 9 samples.

Results

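Transcript levels of intestinal epithelial cells that lacked Tfr1 were compared with those of control epithelium, across genes of 44 functional groups, in newborn mouse pups on postnatal day 0. The comparison took the 3 arrays labelled knockout (Tfr1 IEC-KO, a knockout of Tfr1 in intestinal epithelial cells) and the 3 arrays labelled control (Tfr1fl/fl, homozygous for the floxed allele and given as wildtype), 6 of the 9 arrays in the series. The other 3 arrays, of knockout pups that also carried Tfr1R654A at the ROSA26 locus, entered only the estimate of spread. Cells came from small intestine and proximal colon together, were released by 30 min in 2 mM EDTA and shaking, and passed a 70 µm mesh with no sort by a surface marker named in the labels. No pup was treated. The labels give neither the Cre driver, nor the sex of the pups, nor whether an array holds 1 pup or several, so p-values measure only the spread between arrays.

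Tfr1, the product of Tfrc, binds transferrin at the cell surface and brings its iron into cells by endocytosis. Iron taken up in this way goes into haem and iron-sulfur clusters, which the respiratory chain, the tricarboxylic acid cycle, peroxisomal catalase and many oxidoreductases need. The intestinal epithelium of a newborn differs from that of an adult: its enterocytes take up milk proteins whole by apical endocytosis, digest them in large lysosomes and make arginine and citrulline from other amino acids.

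Levels are log2 values, so a difference of 1 is a 2-fold difference in array signal. The 18193 genes read by probe sets with 1 symbol were tested with limma, and every adjusted p is limma's, over all of these genes, with a threshold of 0.05. A gene is said to rise or fall only where it passed, and its change is given with its standard error from 3 arrays per group. Of all genes 14.1% passed, 5.29% higher (963) and 8.77% lower (1596) in knockout, against which the counts of each group are to be read. The median change over all genes was -0.04. Genes outside the fixed rule for naming are introduced as named after their values were seen, and so were those given as not passing.

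Tfrc was read by 3 probe sets with its symbol alone. The brightest gave 10.2, 10.8 and 9.88 in the control arrays and 10.8, 11.2 and 9.07 in the arrays labelled knockout, a difference of 0.04 ± 0.51 (adjusted p = 0.97). The groups overlapped, with knockout replicate 2 the highest and knockout replicate 3 the lowest of the 6. The dimmer probe sets differed by -0.28 ± 0.15 and -0.36 ± 0.14, and neither passed (adjusted p = 0.28 and 0.13). Which exons these probe sets read, and which exons the floxed allele loses, is not given in the sources used here, so the values do not check the deletion.

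Epithelial markers read high in all 6 arrays, while other cells of the gut wall were read unequally in the knockout arrays. Of the 9 epithelial markers 4 passed as higher and 1 as lower. The 9 epithelial markers, among them Epcam, Cdh1 and Vil1, had a median control level above that of 98.4% of genes, and their mean level was 11.8 to 11.9 in control and 12.1 in each knockout array. The 20 fibroblast markers measured, such as the collagens Col1a1 and Col3a1, had a mean level of 6.61 to 7.29 in control arrays and 10.4, 9.88 and 7.32 in knockout replicates 1, 2 and 3. Relative to the control mean their median shift was 3.55, 3.03 and 0.30 in the same order, and 5 of 20 passed as higher. Smooth muscle markers lay 3.28, 1.69 and 0.13 above control, and those of neurons and glia 1.71, 0.67 and 0.17. Mesothelium was highest in replicate 2 (2.19) and so was pancreas (2.14), each against -0.01 and 0.51 in replicate 3. The 10 enteroendocrine markers lay 0.94, 0.78 and 1.10 above control and 7 of them passed as higher, among them the hormones ghrelin, Ghrl (3.23-fold), and somatostatin, Sst (2.32-fold), both named after their values were seen. In bulk RNA, fewer cells of a type and less RNA per cell cannot be told apart. Knockout replicate 3, in which fibroblast markers were low, is therefore given array by array for the genes described in most detail, and in counts for many of the lists.

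**Figure D1:**
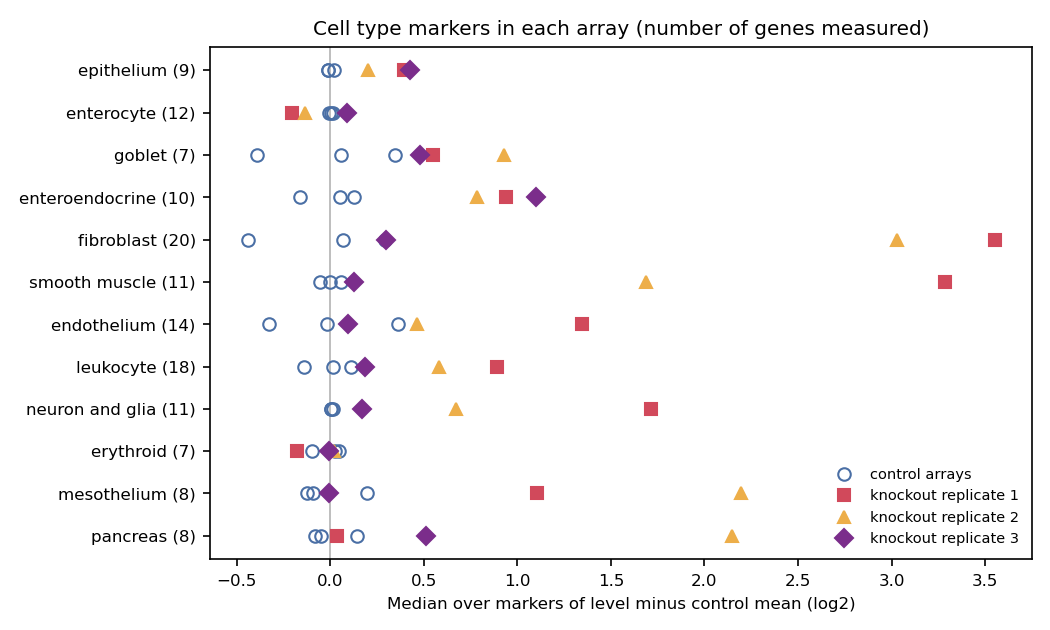
Median distance of each cell type's markers from their control mean (log2, horizontal axis) in every array, with the number of genes measured in parentheses. Open circles are the 3 control arrays and filled signs the 3 knockout arrays. Fibroblast and smooth muscle markers are far to the right in knockout replicates 1 and 2, while replicate 3 sits near the control arrays; enteroendocrine markers are to the right in all 3.

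Most changes were of moderate size. Of the 2559 genes that passed, 949 changed at least 2-fold, 1256 changed by 0.5 to 1 on the log2 scale and 354 by less. By construction, since each knockout array entered the fit, the genes that passed were shifted in replicate 3 as well: the median shift of the genes that rose was 1.19, 1.002 and 0.84 in replicates 1, 2 and 3, and that of the genes that fell was -0.85, -0.71 and -0.65. With replicate 3 as the sole knockout array, assumed to vary like the other groups, 1331 of the 2559 genes (52.0%) passed in the same direction, 537 higher and 794 lower. That is 2.95% and 4.36% of all genes, and it is no independent support, because the same array helped to choose the 2559. Control replicates mattered too: 405, 452 and 368 genes rose and 697, 760 and 568 fell without control replicates 1, 2 and 3, whereas 2328 rose and 2670 fell without knockout replicate 3. Without knockout replicate 1, 656 rose and 973 fell. In each of the 9 fits without 1 array, 336 genes passed as higher (1.85% of all) and 529 as lower (2.91%). Of the genes said to rise or fall here or in the closing observations, Afp, Anxa13, Ass1, Cdk6, Egr1, Fabp6, Il33, Lrp2, Otc, Per2, Sdhb, Slc11a1, St3gal4, St6galnac1 and Ugt2b5 did not pass with replicate 3 as the sole knockout array. With the mean of the fibroblast markers as a covariate, Afp, Aldh18a1, Anxa9, Anxa13, Ass1, Bmp2, Cat, Cdk6, Ces2a, Ctsz, Dusp4, Egr1, Ereg, Fabp6, Igfbp3, Il33, Klf4, Klf6, Lcp1, Lrp2, Nlrp6, Notch2, Otc, Per2, Prdm1, Sdhb, Sirt3, Slc11a1, Slc23a2, St3gal4, St6galnac1, Suclg1, Sult1a1, Tgfbr2, Trp53inp1 and Ugt2b5 did not pass. The covariate itself was higher in the knockout arrays. In what follows, the range of a group's count over these 9 fits names the arrays at its ends.

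**Figure D2:**
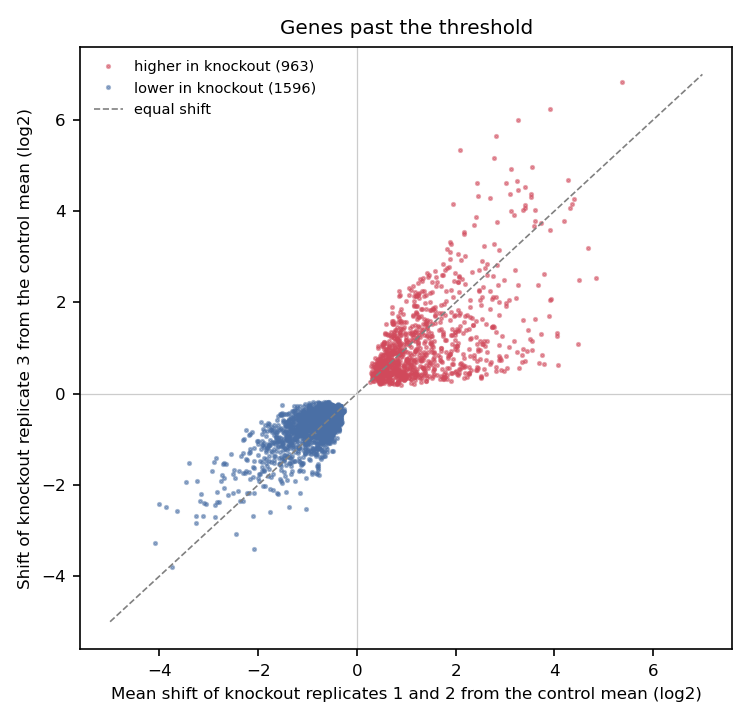
Shift of knockout replicate 3 from the control mean (vertical axis, log2) against the mean shift of knockout replicates 1 and 2 (horizontal axis, log2), 1 point per gene past the threshold. The dashed line marks equal shifts. Genes that rose (963) lie to the upper right and genes that fell (1596) to the lower left. In 2554 of the 2559 all knockout arrays are on one side of all control arrays, against 32.4% of all genes tested. The 2559 were chosen for a difference between these same arrays, so this is no further support.

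In 472 genes past the threshold (2.59% of all), every knockout array lay at least 2-fold from the control mean, 265 higher and 207 lower. Outside the 10 largest rises and falls, those with the largest least shift included Ly6d, a surface protein, which read 6.39, 6.34 and 6.31 in control and 9.93, 9.81 and 10.7 in knockout. All knockout arrays were far above all control arrays, and Ly6d rose by 3.81 ± 0.24 (14.04-fold, adjusted p = 1.8e-04). Tm4sf4, a membrane protein of the tetraspanin superfamily, rose 12.3-fold, Fmnl2, an actin-assembling formin, at least 14.1-fold, and Cpe, which trims prohormones, 13.4-fold on its brighter probe set (a change of 0.18 to 3.74 over its 2 probe sets). Pnliprp2, a lipase also made in pancreas, read 10.8, 11.2 and 11.7 in knockout against 7.54, 7.78 and 7.64 in control and rose by 3.59 ± 0.23 (12.05-fold, adjusted p = 2.2e-04). The pancreas markers lay 0.04, 2.14 and 0.51 above control in the 3 knockout arrays, and their part in this rise was not tested. The autophagy gene Atg9b rose by 3.67 ± 0.19 on its brighter probe set, while its other one differed by -0.10. AA467197 rose at least 12.3-fold, and Serpinb9b, a protease inhibitor, 16.3-fold.

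Among the genes with the largest least fall were Tert and Piwil2, known from germ and stem cells. Tert, the catalytic subunit of telomerase, read 9.01, 8.71 and 9.28 in control and 5.83, 6.05 and 6.58 in knockout. No knockout array came within 2-fold of a control array, and Tert fell by 2.85 ± 0.31 (at least 7.19-fold, adjusted p = 0.0015). Piwil2, a PIWI protein that binds small RNAs, fell at least 6.28-fold (adjusted p = 3.3e-04). H2-Q10, a class I histocompatibility gene, fell 6.13-fold, Gstp3, a glutathione transferase, 7.30-fold, and the lipid droplet enzyme Hsd17b13 6.39-fold on its brighter probe set (-2.67 to -0.17 over its 2 probe sets). Sdr16c5, which oxidises retinol, fell at least 6.64-fold and read 4.51, 4.88 and 5.13 in knockout arrays.

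**Figure D3:**
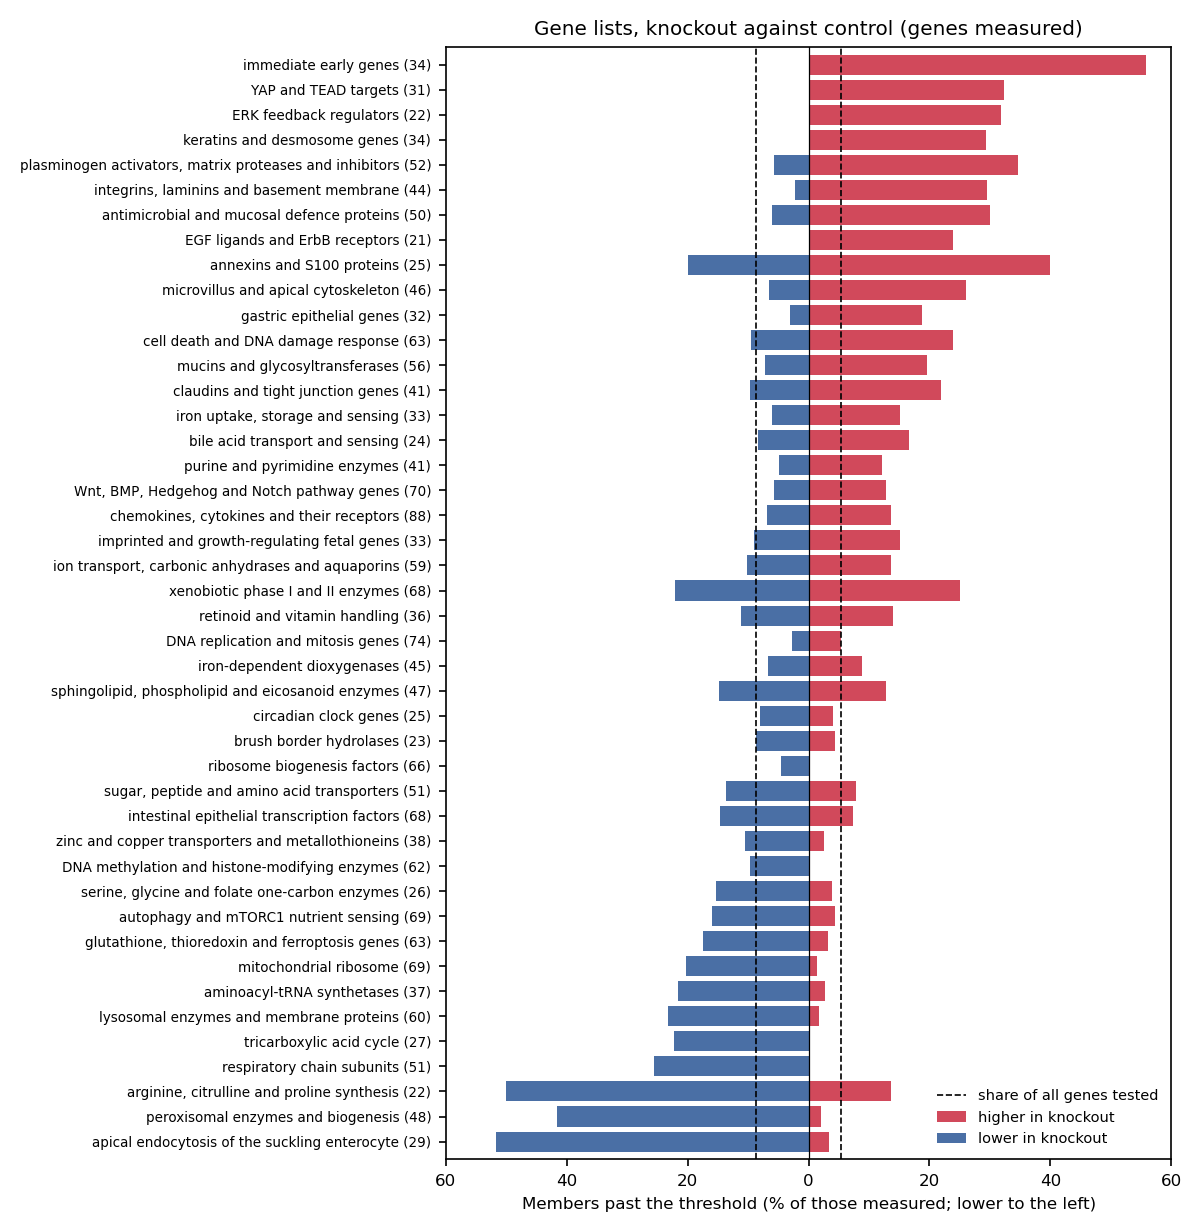
Share of the measured members of each of 44 gene lists that passed the threshold (horizontal axis, percent), higher in knockout to the right and lower to the left, with the number of genes measured in parentheses. The dashed lines mark the shares of all genes tested, 5.29% higher and 8.77% lower. Immediate early genes reach furthest to the right, with no falls, and apical endocytosis, arginine synthesis and peroxisomal genes furthest to the left.

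Genes listed for apical endocytosis, the route by which suckling enterocytes take up milk proteins, fell more often than genes at large. The list is wider than the uptake route itself, since it also holds the regulator Tfeb, the immunoglobulin carrier Pigr and the secreted chaperone Clu. Of 29 measured, 15 fell and 1 rose, 51.7% lower against 8.77% of all genes, with a range of falls from 5 without control replicate 3 to 18 without knockout replicate 3. The list's median shift was -0.67, -0.73 and -0.24 in knockout replicates 1, 2 and 3. Pigr, the receptor that carries immunoglobulin A across the epithelium, read 9.59, 10.6 and 10.04 in control and 7.33, 7.09 and 7.36 in knockout. The knockout arrays were close together and all below the control arrays, and Pigr fell by 2.81 ± 0.39 (7.03-fold, adjusted p = 0.0033). Prdm1, the repressor Blimp1, which maintains the suckling state of enterocytes, was named after its values were seen and read 10.01, 10.1 and 10.3 against 8.55, 7.96 and 8.71, a fall of 3.30-fold (adjusted p = 0.0064). Snx5, a sorting nexin of endosomes, fell 1.64-fold and Tfeb, a transcription factor of lysosomal genes, 1.996-fold. Lrp2, or megalin, the large receptor of this route, was also named after its values were seen: it fell by 1.91 ± 0.43 (adjusted p = 0.022) but missed the threshold without control replicate 1, 2 or 3 (or replicate 1 or 2 of knockout) (adjusted p up to 0.084). Its partner Cubn read 12.4, 12.1 and 12.4 in control and 11.8, 11.5 and 12.2 in knockout and did not pass (-0.41 ± 0.18, adjusted p = 0.16). The member that rose was Clu, a secreted chaperone (6.53-fold). With only replicate 3 on the knockout side 5 of the 15 passed, and with the mean of the fibroblast markers as a covariate in the fit 3 genes of the list fell.

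Lysosomal genes fell as well, in smaller number. Of 60 measured, 14 fell and 1 rose (4 of the 14 stand in both lists), with a range of falls from 5 without control replicate 1 or 3 to 30 without knockout replicate 3, and medians of -0.38, -0.51 and -0.12. Slc17a5, which exports sialic acid from lysosomes, read 12.9, 12.7 and 12.9 in control and 11.4, 10.8 and 11.5 in knockout. Replicate 2 was the lowest and no array overlapped with control, and Slc17a5 fell by 1.56 ± 0.17 (2.96-fold, adjusted p = 0.0015). Mcoln3, an endolysosomal cation channel, fell at least 10.6-fold, Ctsz, a cathepsin, 1.82-fold, and Sgsh, which degrades heparan sulfate, 1.81-fold (-0.85 to 0.07 over its 2 probe sets). Other well-known enzymes of the list did not pass, among them Ctsd (0.13 ± 0.14), Ctsb (-0.24 ± 0.13) and Lamp1 (-0.29 ± 0.12). Of 69 genes of autophagy and mTORC1 sensing 11 fell and 3 rose (a range of falls from 4 without control replicate 1 or 3 to 15 without knockout replicate 3), and 6 rose without knockout replicate 3. The kinase subunit Prkaa1 fell 1.81-fold and Atg10, which acts on ubiquitin-like autophagy proteins, 2.53-fold.

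Some carriers of peptides and vitamins fell and others rose. Slc15a2, a carrier of small peptides, read 9.69, 9.37 and 9.38 in control and 6.92, 7.32 and 7.13 in knockout. The groups lay far apart, and Slc15a2 fell by 2.35 ± 0.19 (5.11-fold, adjusted p = 5.1e-04). This is its brightest of 3 probe sets, and the change ranged from -2.35 to -0.15 over them; without probe sets that may cross-match it did not pass. Folr1, a folate receptor, read 13.2, 12.98 and 13.2 against 11.5, 10.4 and 11.2, lowest in replicate 2 and apart from control in all 3 arrays. It fell by 2.07 ± 0.25 (4.19-fold, adjusted p = 0.0021), while Slc46a1, the proton-coupled folate transporter, read 9.01, 9.10 and 9.02 in control and 11.1, 10.8 and 12.4 in knockout and rose by 2.36 ± 0.37 (5.13-fold, adjusted p = 0.006), most in replicate 3. The vitamin C carriers went apart as well: Slc23a1 fell 5.35-fold and Slc23a2 rose 2.58-fold (0.02 to 1.37 over its 2 probe sets). Of 51 sugar, peptide and amino acid transporters 7 fell and 4 rose, with a range of falls from 4 without control replicate 3 to 14 without knockout replicate 3 and a range of rises from 0 without control replicate 1 or 3 (or replicate 2 of knockout) to 12 without knockout replicate 3. The glucose carriers Slc5a1 (0.30 ± 0.19) and Slc2a2 (-1.23 ± 0.53) and the peptide carrier Slc15a1 (0.27 ± 0.29) did not pass.

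Of 36 genes of retinoid and vitamin handling 5 rose and 4 fell (a range of rises from 1 without control replicate 3 to 5 without knockout replicate 3, a range of falls from 2 without control replicate 1, 2 or 3 (or replicate 1 or 2 of knockout) to 11 without knockout replicate 3). The vitamin D receptor gene Vdr read 9.04, 8.76 and 8.88 in control and 7.34, 7.33 and 7.61 in knockout. All 3 knockout arrays lay close together and well below control, and Vdr fell by 1.47 ± 0.13 (2.76-fold, adjusted p = 6.9e-04). Rbp4, which carries retinol, rose by 1.86 ± 0.36 but missed the threshold without control replicate 2 or 3 (adjusted p up to 0.055). Among 59 genes of ion and water transport 8 rose and 6 fell, with a range of rises from 5 without control replicate 1 or 3 to 12 without knockout replicate 3 and a range of falls from 1 without control replicate 1, 2 or 3 to 13 without knockout replicate 3. Clca4a, a regulator of chloride channels, read 9.003, 8.68 and 8.74 against 12.1, 11.98 and 13.5 and rose 13.1-fold (adjusted p = 0.002). The sodium channel subunit Scnn1g rose at least 1.95-fold, from a dim level. Of 38 zinc and copper genes 4 fell and 1 rose, which is 10.5% lower, near the 8.77% of all genes (a range of falls from 2 without control replicate 1, 2 or 3 to 8 without knockout replicate 3); the zinc carrier Slc39a5 fell 2.44-fold and the exporter Slc30a1 2.28-fold, while the metallothioneins Mt1 (-0.47 ± 0.21) and Mt2 (-0.63 ± 0.27) did not pass.

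Most genes of the iron list did not pass, but a larger share of them rose than of genes at large. Of 33 measured 5 rose (15.2% against 5.29% of all genes) and 2 fell (6.06% against 8.77%). Rises ranged from 2 without control replicate 3 to 6 without knockout replicate 3. Falls ranged from 1 without control replicate 1 or 3 to 5 without knockout replicate 3. The list's medians were -0.12, -0.03 and 0.04 in the 3 knockout arrays. Steap2, a metalloreductase, read 8.24, 8.32 and 8.39 in control and 6.26, 6.65 and 6.29 in knockout. All knockout arrays were far below all control arrays, and Steap2 fell by 1.92 ± 0.21 (3.77-fold, adjusted p = 0.0014). Ltf, the iron-binding milk and mucosal protein lactoferrin, rose 2.69-fold. The importer Slc11a2 (-0.46 ± 0.29, adjusted p = 0.32), the exporter Slc40a1 (-0.16 ± 0.10, adjusted p = 0.35), the ferritin gene Fth1 (-0.08 ± 0.10, adjusted p = 0.65) and the ferric reductase Cybrd1 (0.75 ± 0.41, adjusted p = 0.27) did not pass.

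Of 22 genes of arginine, citrulline and proline synthesis 11 fell and 3 rose, with a range of falls from 6 without control replicate 3 to 11 without knockout replicate 3, and medians of -0.67, -0.40 and -0.44. With replicate 3 as the sole knockout array 6 fell, and with the fibroblast covariate 4 fell; the 3 rises were 0 without control replicate 3. Aldh18a1, which makes the first intermediate from glutamate, read 13.02, 12.9 and 12.95 in control and 11.2, 11.4 and 11.9 in knockout. It fell by 1.47 ± 0.23 (2.76-fold, adjusted p = 0.0056), least in replicate 3 and with no overlap, and with the fibroblast covariate its difference was -0.94, which did not pass. Asl, argininosuccinate lyase, read 10.9, 10.5 and 10.7 against 8.90, 8.86 and 9.43 and fell by 1.65 ± 0.17 (3.14-fold, adjusted p = 0.0013). The next 3 were named after their values were seen: Ass1, which makes the substrate of Asl, fell by 1.17 ± 0.23 (adjusted p = 0.014), Cps1, which makes carbamoyl phosphate, fell by 0.80 ± 0.15 (adjusted p = 0.012), and Otc, which makes citrulline, fell by 1.12 ± 0.26 but missed the threshold without control replicate 1, 2 or 3 (or replicate 1 or 2 of knockout) (adjusted p up to 0.094). The proline oxidase Prodh read 10.5, 10.1 and 10.5 in control and 7.70, 8.06 and 8.63 in knockout and fell 4.78-fold, and its relative Prodh2, which oxidises hydroxyproline, 4.98-fold. Arg2, the mitochondrial arginase, went the other way: it read 4.48, 6.06 and 4.94 in control and 7.11, 6.94 and 7.94 in knockout and rose by 2.17 ± 0.40, but missed the threshold without control replicate 3 (adjusted p up to 0.053); it was named after its values were seen. Of 26 serine, glycine and folate enzymes 4 fell and 1 rose, and 9 fell with replicate 3 as the sole knockout array. Gamt, which makes creatine, fell at least 2.67-fold and Gcsh, a subunit of the glycine cleavage system, 1.90-fold.

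Peroxisomal genes fell more often than genes at large. Of 48 measured 20 fell and 1 rose, 41.7% against 8.77%, with a range of falls from 10 without control replicate 3 to 27 without knockout replicate 3, and 10 of the 20 passed in each of the 9 fits. Medians were -0.86, -0.51 and -0.35, and 11 of the 20 passed with replicate 3 as the sole knockout array; 9 genes fell with the fibroblast covariate. Dao, which oxidises D-amino acids, read 8.71, 8.57 and 8.71 in control and 6.78, 7.001 and 7.18 in knockout. The control arrays were nearly equal and the knockout arrays all lay well below them, and Dao fell by 1.68 ± 0.12 (3.20-fold, adjusted p = 3.1e-04). Pecr, which reduces fatty enoyl-CoA, read 10.2, 10.2 and 10.5 against 8.08, 7.55 and 8.14 and fell 5.25-fold, and Pipox, which oxidises pipecolic acid and sarcosine, fell 2.99-fold. Cat, catalase, read 11.98, 11.9 and 12.1 in control and 10.8, 10.7 and 11.4 in knockout, with replicate 3 nearest to control, and fell by 1.07 ± 0.18 (2.09-fold, adjusted p = 0.0073); with the fibroblast covariate its difference was -0.60, which did not pass. Proteins that build the organelle were among them: Pex5, the receptor that imports peroxisomal proteins, fell 1.83-fold, and Pex7, the other import receptor, Pex14, their docking protein, and Pex10, a ubiquitin ligase of the importer, named after their values were seen, fell 1.67-fold, 1.68-fold and 2.09-fold. The oxidases Acox2 (0.37 ± 0.54) and Acox3 (0.06 ± 0.09) and the thiolase Acaa1a (0.12 ± 0.12) did not pass.

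In the lists of the respiratory chain, the tricarboxylic acid cycle and the mitochondrial ribosome, falls were mostly small. Most of these calls were lost without 1 array or another. Of 51 respiratory chain subunits 13 fell and 0 rose, with a range of falls from 1 without control replicate 2 or 3 to 12 without knockout replicate 3, and the medians were -0.33, -0.19 and -0.25. Ndufs8, a complex I subunit with iron-sulfur clusters, was the 1 gene of the list that fell in each of the 9 fits: it read 12.04, 12.1 and 11.9 in control and 11.4, 11.5 and 11.2 in knockout, with no overlap, and fell by 0.65 ± 0.11 (1.57-fold, adjusted p = 0.0079). Of 27 genes of the tricarboxylic acid cycle 6 fell and 0 rose (a range of falls from 1 without control replicate 3 to 10 without knockout replicate 3). Suclg1, a subunit of succinyl-CoA ligase, fell 1.55-fold, and Sdhb, the iron-sulfur subunit of succinate dehydrogenase, fell by 0.48 ± 0.10 but missed the threshold without control replicate 2 or 3 (adjusted p up to 0.064). Of 69 mitochondrial ribosomal proteins 14 fell and 1 rose, with a range of falls from 4 without control replicate 2 or 3 to 23 without knockout replicate 2, and 30 fell with replicate 3 as the sole knockout array. Mrpl23 read 10.6, 10.5 and 10.7 in control and 9.62, 9.57 and 9.37 in knockout, lowest in replicate 3, and fell by 1.08 ± 0.13 (2.12-fold, adjusted p = 0.0018). Of 37 aminoacyl-tRNA synthetase genes, which charge tRNAs, 8 fell and 1 rose (a range of falls from 3 without control replicate 3 to 10 without knockout replicate 2). Vars, for valine, fell 2.98-fold and passed in each of the 9 fits, while Gars, for glycine, rose 1.75-fold.

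Of 63 genes of glutathione, thioredoxin and ferroptosis 11 fell and 2 rose, and 2 of the 11 passed in each of the 9 fits (a range of falls from 3 without control replicate 1 or 3 to 15 without knockout replicate 3). One of these is Cat, also counted above. The other, Coq8a, which is needed to make ubiquinone, read 8.32, 8.62 and 8.59 in control and 6.87, 6.79 and 6.99 in knockout. No array overlapped, and it fell by 1.63 ± 0.22 (3.09-fold, adjusted p = 0.003; -1.63 to -0.29 over its 2 probe sets). The ferroptosis genes Gpx4 (-0.08 ± 0.14, adjusted p = 0.76) and Slc7a11 (0.11 ± 0.13, adjusted p = 0.64) did not pass.

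Enzymes that handle drugs and other foreign compounds changed in both directions more often than most genes. Of 68 measured 17 rose (25%, against 5.29% of all genes) and 15 fell (22.1%, against 8.77%), with a range of rises from 9 without control replicate 1 or 3 to 20 without knockout replicate 3 and a range of falls from 7 without control replicate 3 to 20 without knockout replicate 3. In 12 of those that rose and 5 of those that fell every knockout array was shifted at least 2-fold, against 1.46% and 1.14% of all genes. Cyp2c65, a cytochrome P450 of the gut, read 7.21, 8.11 and 8.14 in control and 10.4, 10.98 and 10.98 in knockout. Control replicate 1 was the lowest of its group, no array overlapped, and Cyp2c65 rose by 2.98 ± 0.26 (7.88-fold, adjusted p = 6.4e-04). Cyp2c55 rose at least 5.86-fold and Ephx1, an epoxide hydrolase, at least 6.41-fold, both from dim control levels. Named after their values were seen, Cyp3a13 rose 2.85-fold, the sulfotransferase Sult1a1 at least 3.27-fold, the aldo-keto reductase Akr1b8 4.84-fold and the glutathione transferase Gsta4 3.23-fold. Akr1c14, which reduces steroids, read 8.45, 8.81 and 9.37 against 5.06, 6.17 and 6.04, lowest in replicate 1, and fell by 3.12 ± 0.40 (at least 8.69-fold, adjusted p = 0.0027). Ugt2b5, a glucuronosyltransferase, and Ces2a, a carboxylesterase, likewise named after their values were seen, fell 3.50-fold and 2.47-fold. Members of a P450 or transferase family are alike in sequence, and probe sets may read more than 1 of them.

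Some carriers of bile acids rose and a bile acid receptor fell. Slc10a2, the bile acid importer, read 3.37, 3.78 and 3.35 in control and 5.90, 6.04 and 5.75 in knockout, close within each group, and rose by 2.40 ± 0.26 (at least 5.27-fold, adjusted p = 0.0015). Fabp6, which binds bile acids in the cell, read 8.75, 7.33 and 7.21 against 11.9, 11.1 and 11.5; control replicate 1 stood above the other two, and Fabp6 rose by 3.73 ± 0.68 (13.3-fold, adjusted p = 0.0098). Nr1h4, the bile acid receptor FXR, read 11.1, 11.2 and 11.3 in control and 10.1, 10.1 and 10.3 in knockout and fell 2.06-fold (adjusted p = 0.0051). Its target Fgf15 (-0.87 ± 0.53, adjusted p = 0.32) did not pass. Of the 24 genes of bile acid transport and sensing 4 rose and 2 fell, while 6 fell without knockout replicate 3 and 1 without any other single array. Of 47 sphingolipid, phospholipid and eicosanoid enzymes 6 rose and 7 fell (a range of rises from 1 without control replicate 1 or 2 to 9 without knockout replicate 3, a range of falls from 3 without control replicate 2 or 3 to 13 without knockout replicate 3). Hpgd, which inactivates prostaglandins, read 6.60, 6.85 and 7.12 in control and 8.69, 9.17 and 9.42 in knockout and rose 4.71-fold (adjusted p = 9.9e-04), and Faah, which breaks down fatty acid amides, fell 2.23-fold.

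Among the purine and pyrimidine enzymes Ada, adenosine deaminase, rose 25.8-fold. Nt5e, the surface enzyme that makes adenosine, read 8.41, 7.59 and 7.500 in control and 10.9, 10.3 and 13.01 in knockout, highest in replicate 3, and rose by 3.58 ± 0.62 (11.9-fold, adjusted p = 0.0082). Its changes ran from 0.03 to 3.58 over its 3 probe sets, and no other one passed. Upp1, which splits uridine, rose at least 2.60-fold, and Uck1, a uridine kinase, fell 2.15-fold. Of the 41 purine and pyrimidine enzymes 5 rose and 2 fell (a range of rises from 4 without control replicate 1 or 3 (or replicate 1 or 2 of knockout) to 10 without knockout replicate 3), while genes of synthesis from small precursors, such as Ppat (0.46 ± 0.32) and Cad (0.16 ± 0.40), did not pass.

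**Figure D4:**
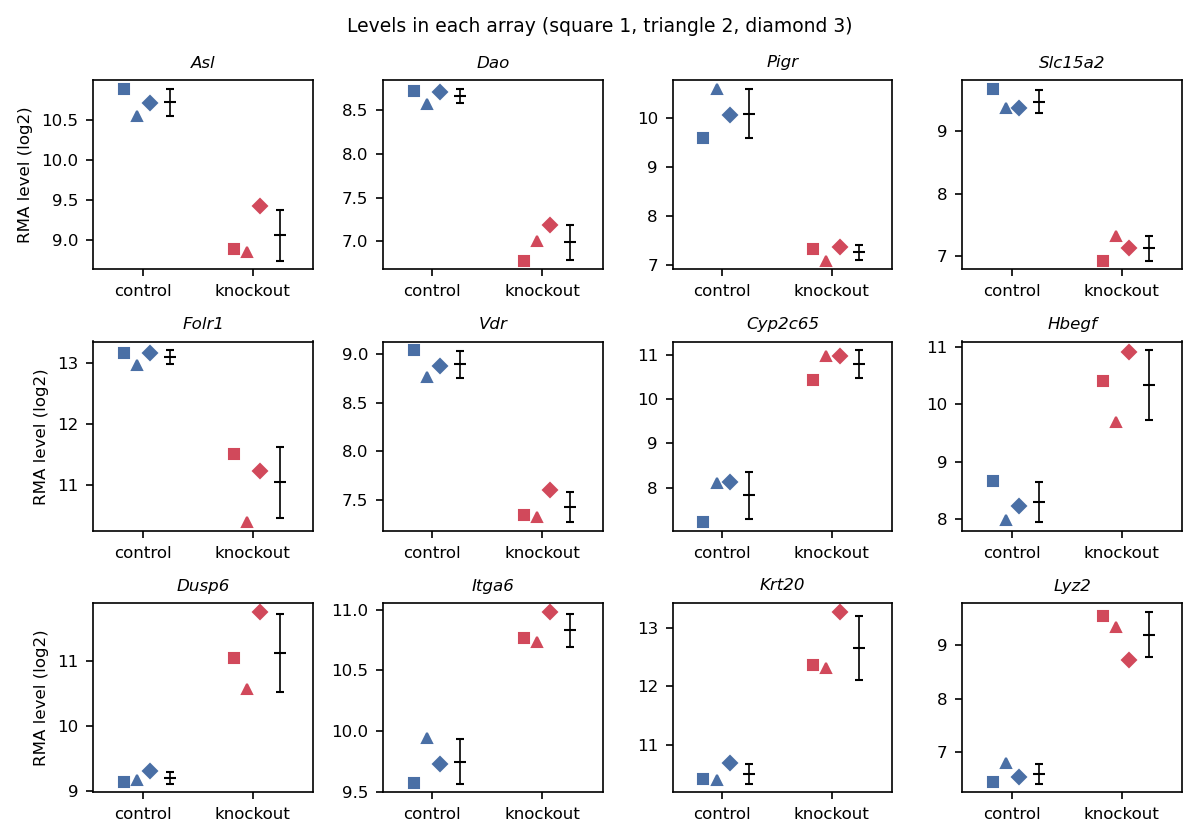
Log2 RMA level (vertical axis, scaled per panel and not starting at 0) of 12 genes in the 3 control and 3 knockout arrays. Squares, triangles and diamonds are replicates 1, 2 and 3, and the bar beside each group is its mean with 1 SD (n = 3). In all 12 panels the groups do not overlap, as in 2554 of the 2559 genes that passed.

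Some ligands of the EGF receptor, feedback inhibitors of ERK and many immediate early genes rose. Such genes are known from 1 loop. Ligands released by epithelial cells activate the receptor and the kinase ERK. ERK switches on immediate early transcription factors within minutes, and phosphatases made in response switch ERK off. Whether this loop was active in these cells was not tested. Of 21 ligand and receptor genes 5 rose and 0 fell (a range of rises from 3 without control replicate 1, 2 or 3 to 7 without knockout replicate 3). Hbegf, a membrane-bound ligand, read 8.67, 7.99 and 8.22 in control and 10.4, 9.70 and 10.9 in knockout, highest in replicate 3. No array overlapped, and Hbegf rose by 2.04 ± 0.33 (4.11-fold, adjusted p = 0.0066). The ligands Btc and Ereg rose 2.56-fold and 3.08-fold, while Egf (0.07 ± 0.12), Tgfa (-0.11 ± 0.22) and the receptor Egfr (-0.02 ± 0.10) did not pass. Errfi1, an inhibitor of the receptor, rose by 1.12 ± 0.25 but missed the threshold without control replicate 1, 2 or 3 (adjusted p up to 0.075), with changes of 0.85 to 1.12 over its 2 probe sets.

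Of 22 feedback regulators of ERK 7 rose and 0 fell (31.8% against 5.29%), with a range of rises from 5 without control replicate 1 or 3 to 11 without knockout replicate 3, and medians of 0.76, 0.43 and 0.41. Dusp6, the phosphatase specific for ERK, read 9.13, 9.16 and 9.30 in control and 11.04, 10.6 and 11.8 in knockout. Replicate 3 was the highest and the control arrays were nearly equal, and Dusp6 rose by 1.92 ± 0.26 (3.78-fold, adjusted p = 0.0031). Dusp1, which acts on several MAP kinases, rose 6.502-fold, Dusp4 at least 3.69-fold and Phlda1, a protein induced by growth factors, 6.51-fold. The Sprouty gene Spry4 (0.23 ± 0.15) and the ERK-induced factors Etv4 (0.60 ± 0.24) and Etv5 (1.048 ± 0.38) did not pass.

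Of 34 immediate early genes 19 rose and 0 fell (55.9% against 5.29%), with a range of rises from 8 without control replicate 3 to 18 without knockout replicate 2 or 3. Medians were 0.88, 0.46 and 0.66, and 13 of the 19 passed with replicate 3 as the sole knockout array; 7 genes rose with the fibroblast covariate. Btg2, an antiproliferative factor, read 7.66, 7.51 and 7.86 in control and 8.83, 8.95 and 9.43 in knockout, highest in replicate 3, and rose by 1.39 ± 0.17 (2.62-fold, adjusted p = 0.0023). Rhob, a small GTPase, rose 3.47-fold, and Egr1, a zinc finger factor, 6.69-fold with knockout levels of 11.04, 11.3 and 10.1. Named after their values were seen, the Krüppel-like factors Klf4 and Klf6 rose 3.45-fold and 5.43-fold and the stress factor Atf3 2.44-fold. Fos, a partner in the AP-1 dimer, read 9.94, 8.90 and 9.36 in control and 11.2, 11.4 and 12.5 in knockout, and rose by 2.29 ± 0.47 but missed the threshold without control replicate 2 or 3 (adjusted p up to 0.066); it too was named after its values were seen.

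The cAMP response element TGACGTCA, or its core TGACG, is known from promoters of immediate early genes, and those of Dusp1, Fos and Btg2 are shown as examples of genes that rose together. The sequences are RefSeq's (GRCm38.p6), each the 250 bases before the transcription start, 5′ to 3′ on the gene's strand, with every TGACG on either strand, or TGACGTCA where the element is whole, in capitals.
Dusp1 (chr17:26508473-26508722, minus strand): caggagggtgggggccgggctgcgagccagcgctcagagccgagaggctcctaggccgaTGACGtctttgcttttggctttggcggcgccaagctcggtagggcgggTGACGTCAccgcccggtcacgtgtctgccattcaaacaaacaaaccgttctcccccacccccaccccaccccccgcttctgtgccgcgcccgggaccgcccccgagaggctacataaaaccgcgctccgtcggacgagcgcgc
Fos (chr12:85473640-85473889, plus strand): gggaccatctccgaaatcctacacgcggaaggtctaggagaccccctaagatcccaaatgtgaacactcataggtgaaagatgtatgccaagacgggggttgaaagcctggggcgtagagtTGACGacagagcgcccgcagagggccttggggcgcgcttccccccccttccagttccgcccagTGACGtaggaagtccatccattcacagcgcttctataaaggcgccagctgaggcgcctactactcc
Btg2 (chr1:134079156-134079405, minus strand): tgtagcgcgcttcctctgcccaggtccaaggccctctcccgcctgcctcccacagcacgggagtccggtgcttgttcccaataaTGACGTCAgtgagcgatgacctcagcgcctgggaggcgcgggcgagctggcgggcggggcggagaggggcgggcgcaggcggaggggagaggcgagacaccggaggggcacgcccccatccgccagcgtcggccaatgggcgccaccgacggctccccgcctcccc
The whole element stood in the promoters of Dusp1 and Btg2, beginning 143 and 166 bases before the start, and that of Fos held the core at 129 and 66 bases. The counts that follow took a wider stretch than the sequences shown. It ran from 250 bases before the start to a short stretch after it, in any listed promoter of a gene. Searched there on both strands, TGACG was found in 11 of the 16 immediate early genes that rose and had a promoter in the tables (68.8%). In the whole list it was found in 16 of 26 (61.5%). Dusp1 belongs to the list of ERK feedback regulators and not to these. In that list TGACG was found in 1 of the 5 genes that rose (20%) and in 6 of 18 of the whole list (33.3%). Of the promoters of all genes tested, 30.0% (4336 of 14452) held it, among genes that rose 26.2% and among those that fell 31.0%. The whole element, which contains the core on both strands, was in 2.92% of all promoters. A match is a run of letters and not a measured binding site.

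The AP-1 site TGANTCA was searched and counted per gene in the same way. Promoters of 11.3% of genes that rose (86 of 764) and of 5.81% of genes that fell (76 of 1308) held it. Among genes that did not pass the share was 7.5%. Anxa10, an annexin of the stomach and the gene with the largest rise, and Mmp7, a matrix protease of the gut epithelium, are shown with the site in capitals.
Anxa10 (chr8:62123194-62123443, minus strand): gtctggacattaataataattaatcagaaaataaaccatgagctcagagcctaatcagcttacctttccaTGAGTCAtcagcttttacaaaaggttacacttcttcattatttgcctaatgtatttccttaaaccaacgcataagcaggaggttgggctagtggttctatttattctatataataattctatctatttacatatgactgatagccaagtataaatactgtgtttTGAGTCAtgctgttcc
Mmp7 (chr9:7691840-7692089, plus strand): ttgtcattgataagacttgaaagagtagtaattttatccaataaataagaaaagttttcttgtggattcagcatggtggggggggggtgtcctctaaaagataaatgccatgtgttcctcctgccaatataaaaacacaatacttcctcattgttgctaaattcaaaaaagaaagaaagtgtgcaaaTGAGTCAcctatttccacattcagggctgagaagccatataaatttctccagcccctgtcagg
In Anxa10 the site began 180 and 16 bases before the start and in Mmp7 63 bases before it. Anxa10 read 5.07, 5.96 and 5.25 in control and 10.7, 10.9 and 12.3 in knockout, the highest in replicate 3. Mmp7 read 7.81, 7.53 and 7.72 against 9.53, 9.20 and 9.26, with no overlap, and rose by 1.65 ± 0.16 (3.13-fold, adjusted p = 9.9e-04).

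Of 31 targets of YAP and TEAD, factors that respond to cell shape and damage, 10 rose and 0 fell (32.3% against 5.29%), with a range of rises from 5 without control replicate 1 or 3 to 16 without knockout replicate 3. Medians were 1.02, 0.61 and 0.42, descending in the order of the fibroblast markers (3.55, 3.03 and 0.30), and with the fibroblast covariate 6 rose and 1 fell. Other lists descended likewise, among them annexins and S100 proteins (0.76, 0.71 and 0.33) and matrix proteases (0.56, 0.38 and 0.25). So did the Wnt, BMP, Hedgehog and Notch list (0.46, 0.20 and 0.10) and the antimicrobial list (0.48, 0.37 and 0.25). Immediate early genes (0.88, 0.46 and 0.66) did not. The cause was not tested. Il33, an alarm cytokine, read 6.39, 7.24 and 7.24 in control and 9.16, 9.88 and 9.29 in knockout and rose 5.599-fold, with replicate 2 the highest. Igfbp3, which binds insulin-like growth factors, read 9.71, 8.91 and 7.98 in the knockout arrays, in the same descending order, and rose 5.06-fold. Amotl1, a binding partner of YAP, rose 3.96-fold (0.05 to 1.99 over its 3 probe sets). The classical target Ankrd1 (0.12 ± 0.10) and Yap1 itself (0.09 ± 0.14) did not pass.

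In the Wnt, BMP, Hedgehog and Notch pathways several ligands and receptors changed. Of 70 genes 9 rose and 4 fell, with a range of rises from 5 without control replicate 1 or 3 (or replicate 1 or 2 of knockout) to 28 without knockout replicate 3, and the target Axin2 (0.10 ± 0.14) did not pass. Wnt4 read 6.46, 6.79 and 6.78 in control and 8.83, 8.45 and 9.15 in knockout, highest in replicate 3, and rose by 2.13 ± 0.28 (4.39-fold, adjusted p = 0.0028). Bmp7 read 9.37, 8.997 and 9.26 against 7.59, 6.98 and 7.70 and fell 3.44-fold. Acvr1c, the activin receptor ALK7, fell at least 5.56-fold (adjusted p = 9.9e-05); its control arrays read 7.17, 7.18 and 7.18. Named after their values were seen, the Notch ligand Jag1 rose 4.98-fold, Notch2 2.23-fold (-0.10 to 1.16 over its 2 probe sets), Bmp2 3.67-fold and the receptor Tgfbr2 3.39-fold (0.08 to 1.76 over its 3 probe sets). Hes6, a factor of the Hes family, fell 1.55-fold.

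Genes of cell attachment and the basement membrane rose more often than genes at large. Of 44 genes of integrins, laminins and basement membrane 13 rose and 1 fell (29.5% higher), with a range of rises from 5 without control replicate 2 to 23 without knockout replicate 3 and medians of 0.74, 0.62 and 0.33. Itga6, an integrin subunit of hemidesmosomes, read 9.57, 9.94 and 9.73 in control and 10.8, 10.7 and 10.98 in knockout, highest in replicate 3, and rose by 1.08 ± 0.12 (2.12-fold, adjusted p = 0.0015). Lamb3, a laminin chain made by epithelia and named after its values were seen, read 6.04, 6.36 and 5.94 against 7.30, 7.78 and 8.77 and rose at least 3.57-fold. Nid1, or nidogen, read 11.01, 10.8 and 10.3 in knockout and rose 5.74-fold, and Agrn, or agrin, rose 2.07-fold (-0.10 to 1.050 over its 2 probe sets). Fn1, fibronectin, rose 13.8-fold and was highest in replicate 3. Among the knockout arrays fibroblast markers were lowest there, and with the fibroblast covariate 6 genes of the list rose. Which cells made these transcripts was not tested.

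Of 52 plasminogen activators, matrix proteases and inhibitors 18 rose and 3 fell (34.6% higher), with a range of rises from 7 without control replicate 2 or 3 to 29 without knockout replicate 3; 1 fell without control replicate 3. Of the 18, 10 passed with replicate 3 as the sole knockout array. Mmp14, which activates other matrix proteases, read 6.89, 6.91 and 6.88 in control and 8.49, 8.18 and 8.27 in knockout, nearly equal within each group, and rose 2.67-fold (adjusted p = 3.2e-04). Prss22, a serine protease of epithelia, rose at least 3.67-fold. Tmprss2, another one, named after its values were seen, rose 3.15-fold. Plau (0.23 ± 0.11) and the inhibitor Timp3 (-0.12 ± 0.44) did not pass. With the fibroblast covariate 9 genes of the list rose and 1 fell.

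Annexins and S100 proteins, calcium-binding proteins of membranes and cytoskeleton, changed in 15 of 25 genes. In knockout 10 rose and 5 fell, with a range of rises from 7 without control replicate 3 to 13 without knockout replicate 3 and a range of falls from 2 without control replicate 1, 2 or 3 (or replicate 2 of knockout, or replicate 3 of rescue) to 6 without knockout replicate 3, and all 10 passed also with replicate 3 as the sole knockout array. S100a6 read 9.82, 9.57 and 9.49 in control and 12.1, 12.4 and 12.2 in knockout. The knockout arrays lay close together, and S100a6 rose by 2.62 ± 0.13 (6.14-fold, adjusted p = 9.9e-05). Anxa1 rose 7.82-fold and Anxa3 at least 6.33-fold. Those that fell included Anxa9 (at least 2.37-fold) and Anxa13 (1.61-fold), an annexin of enterocytes, both named after their values were seen.

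Keratins and desmosome genes rose in 10 of 34 and fell in 0 (a range of rises from 7 without control replicate 3 to 13 without knockout replicate 3), and 7 of the 10 passed in each of the 9 fits. Krt20, a keratin of differentiated enterocytes, read 10.4, 10.4 and 10.7 in control and 12.4, 12.3 and 13.3 in knockout, highest in replicate 3, and rose by 2.14 ± 0.29 (4.41-fold, adjusted p = 0.0031). Krt8, the main simple keratin, rose 1.600-fold from an already high level, Krt23 3.25-fold, and Ppl, periplakin, 2.35-fold. Keratins of stratified epithelia, Krt5 (-0.06 ± 0.10) and Krt13 (0.05 ± 0.17), did not pass. Of 41 claudins and tight junction genes 9 rose and 4 fell (a range of rises from 4 without control replicate 1 or 3 (or replicate 1 of knockout) to 10 without knockout replicate 3, a range of falls from 2 without control replicate 2 or 3 to 7 without knockout replicate 3). Cldn3 read 9.28, 9.63 and 9.34 against 10.97, 10.9 and 11.3 and rose 3.14-fold, F11r, a junctional adhesion molecule, rose 1.73-fold (-0.05 to 0.79 over its 2 probe sets), and Cldn14 fell at least 2.39-fold; Tjp3 (-0.20 ± 0.18) and Ocln (0.21 ± 0.23) did not pass.

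Several genes of the apical cytoskeleton rose, while few digestive enzymes of the brush border passed. Of 46 microvillus and apical cytoskeleton genes 12 rose and 3 fell (a range of rises from 5 without control replicate 1 to 17 without knockout replicate 3, a range of falls from 1 without control replicate 1, 2 or 3 to 11 without knockout replicate 3). Tmigd1, an adhesion molecule of the brush border, read 10.03, 9.63 and 9.84 in control and 12.1, 11.9 and 12.2 in knockout and rose by 2.26 ± 0.28 (4.79-fold, adjusted p = 0.0022). Capg, which caps actin filaments, rose 2.63-fold, Rdx, radixin, 2.40-fold, and Lcp1, an actin-bundling protein, fell 2.70-fold; villin, Vil1, did not pass (-0.17 ± 0.15). Of 23 brush border hydrolases 2 fell and 1 rose, and their medians were -0.52, -0.37 and 0.19, below control in replicates 1 and 2 and above it in replicate 3. Without replicate 3, 11 fell. Lct, lactase, read 13.5, 13.4 and 13.5 in control and 12.7, 12.2 and 12.7 in knockout and fell by 0.90 ± 0.14 (1.86-fold, adjusted p = 0.0051), and it passed in each of the 9 fits.

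Of 56 mucin and glycosyltransferase genes 11 rose (19.6% against 5.29%) and 4 fell (7.14%, below the 8.77% of all genes). All 4 that fell are sialyltransferases, which add sialic acid. St3gal3 read 9.94, 9.82 and 9.99 in control and 7.48, 7.73 and 8.18 in knockout, nearest to control in replicate 3, and fell by 2.12 ± 0.29 (4.33-fold, adjusted p = 0.0032). St3gal1 fell 9.74-fold on its brightest probe set, and its other one differed by -0.15. St6galnac1 fell by 3.06 ± 0.63 but missed the threshold without control replicate 1, 2 or 3 (adjusted p up to 0.064), with changes of -3.06 to 0.03 over its 2 probe sets, and St3gal4, named after its values were seen, fell by 1.502 ± 0.39 but missed the threshold without control replicate 1, 2 or 3 (or replicate 1 or 2 of knockout, or replicate 1 or 2 of rescue) (adjusted p up to 0.12). Among those that rose were Gcnt1, which branches O-linked chains, which rose at least 8.88-fold (0.44 to 3.15 over its 2 probe sets) with control levels of 3.88, 4.07 and 3.40 and knockout levels of 6.53, 6.72 and 7.55, and the galactosyltransferase B4galt1, which rose 2.51-fold. The membrane mucin Muc3, named after its values were seen, rose 5.21-fold, while the secreted mucin Muc2 did not pass (0.05 ± 0.32). Leaving out single arrays gave a range of rises from 5 without control replicate 3 to 18 without knockout replicate 3 and a range of falls from 2 without control replicate 1, 2 or 3 to 6 without knockout replicate 3.

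Of 50 antimicrobial and mucosal defence genes 15 rose and 3 fell (30.0% higher against 5.29%), with a range of rises from 9 without control replicate 1 or 3 to 20 without knockout replicate 3 and a range of falls from 1 without control replicate 1, 2 or 3 (or replicate 1 of knockout) to 5 without knockout replicate 3. Zg16, a lectin of goblet cells that binds bacteria, read 9.87, 9.28 and 9.19 in control and 12.8, 12.9 and 13.6 in knockout, highest in replicate 3, and rose by 3.64 ± 0.32 (12.5-fold, adjusted p = 6.6e-04). Lyz2, a lysozyme, read 6.46, 6.80 and 6.54 against 9.53, 9.32 and 8.71, lowest in replicate 3, and rose 6.02-fold. Lyz2 is also a leukocyte marker, and the 18 leukocyte markers lay 0.89, 0.58 and 0.18 above control in the 3 knockout arrays; the part of leukocytes in its rise was not tested. Lyz1, nearly identical to Lyz2 in sequence, rose 21.3-fold but did not pass where cross-matching probe sets were left out. The bactericidal lectins Reg3b (-0.68 ± 0.62) and Reg3g (1.61 ± 0.54) did not pass. Goblet markers as a whole, 7 genes, lay 0.55, 0.93 and 0.48 above control, where the control arrays spread from -0.39 to 0.35.

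Pycard and Casp1, both parts of the inflammasome, the complex that matures interleukin 18, were among the genes with the largest least fall; no list of inflammasome genes was counted. Pycard, its adaptor ASC, read 11.8, 12.1 and 11.99 in control and 9.66, 9.69 and 9.63 in knockout. The knockout arrays were nearly equal, and Pycard fell by 2.32 ± 0.17 (4.99-fold, adjusted p = 3.2e-04). Casp1, its protease, read 10.6, 10.5 and 10.8 against 7.40, 7.58 and 8.44, and fell by 2.84 ± 0.37 (7.14-fold, adjusted p = 0.0029). Il18, its substrate, and Nlrp6, one of its sensors, were named after their values were seen. Il18 read 10.8, 10.6 and 10.99 in control and 8.52, 9.16 and 9.57 in knockout and fell by 1.71 ± 0.25 (3.26-fold, adjusted p = 0.0045), and Nlrp6 fell by 1.21 ± 0.33 but missed the threshold without control replicate 1, 2 or 3 (or replicate 1 or 3 of knockout, or replicate 1, 2 or 3 of rescue) (adjusted p up to 0.15). Gsdmd, the pore protein cut by Casp1, did not pass (-0.27 ± 0.15, adjusted p = 0.27).

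Of 88 chemokine, cytokine and receptor genes 12 rose and 6 fell (a range of rises from 5 without control replicate 2 to 18 without knockout replicate 3, a range of falls from 3 without control replicate 3 to 10 without knockout replicate 3). Cxcl2, which attracts neutrophils, read 3.99, 3.84 and 3.81 in control and 5.39, 4.73 and 5.22 in knockout, all dim, and rose at least 2.35-fold. The death receptor Tnfrsf21, which did not pass without probe sets that may cross-match, and the ligand Tnfsf9 rose 2.30-fold (0.48 to 1.20 over its 2 probe sets) and at least 2.40-fold, and the growth hormone receptor Ghr fell 2.37-fold, while Tnf (0.05 ± 0.11), Il6 (0.04 ± 0.09) and Il1b (0.05 ± 0.09) did not pass.

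In the list of cell death and DNA damage genes 15 of 63 rose and 6 fell (23.8% higher against 5.29%), with a range of rises from 12 without control replicate 1, 2 or 3 to 21 without knockout replicate 3 and a range of falls from 2 without control replicate 2 or 3 to 9 without knockout replicate 3, and all 15 passed also with replicate 3 as the sole knockout array. Beyond Cdkn1a (5.10-fold) and Phlda3 (6.02-fold), the members named after their values were seen were Eda2r, a receptor of the tumour necrosis factor family (at least 7.19-fold), Pmaip1, the death protein Noxa (4.26-fold), and Trp53inp1 (3.42-fold; 0.32 to 1.77 over its 2 probe sets), which all rose in each of the 9 fits. Eda2r read 4.92, 4.39 and 4.805 in control and 7.70, 8.15 and 6.81 in knockout, with no overlap. Bcl2l15, a BCL2 relative of the gut also named after its values were seen, read 10.01, 9.60 and 9.80 against 6.40, 6.41 and 8.29 and fell 6.83-fold. The p53 targets Bbc3 (0.34 ± 0.13) and Fas (0.36 ± 0.25) did not pass.

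Of 68 transcription factors of the intestinal epithelium 10 fell and 5 rose, with a range of falls from 5 without control replicate 3 to 17 without knockout replicate 3 and a range of rises from 2 without control replicate 3 to 13 without knockout replicate 3. Cdx1, which sets intestinal identity, read 8.30, 8.22 and 8.39 in control and 7.05, 6.44 and 6.78 in knockout, lowest in replicate 2, and fell by 1.54 ± 0.19 (2.92-fold, adjusted p = 0.0023). Grhl3, an epithelial barrier factor, rose at least 2.01-fold, from a dim level. Hnf4a (-0.73 ± 0.21, adjusted p = 0.053), Gata4 (-0.44 ± 0.16, adjusted p = 0.10) and Klf5 (0.22 ± 0.23, adjusted p = 0.59) did not pass. Of 32 genes of gastric epithelium 6 rose and 1 fell (a range of rises from 4 without control replicate 3 to 7 without knockout replicate 3). Lipf, gastric lipase, read 5.598, 4.44 and 5.33 in control and 8.81, 8.24 and 9.66 in knockout and rose at least 13.8-fold, and Psca, a surface protein, rose at least 2.32-fold, while Pga5, a pepsinogen, fell at least 3.28-fold and the gastric mucin Muc5ac (-0.16 ± 0.17) and the proton pump Atp4a (0.07 ± 0.09) did not pass.

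**Figure D5:**
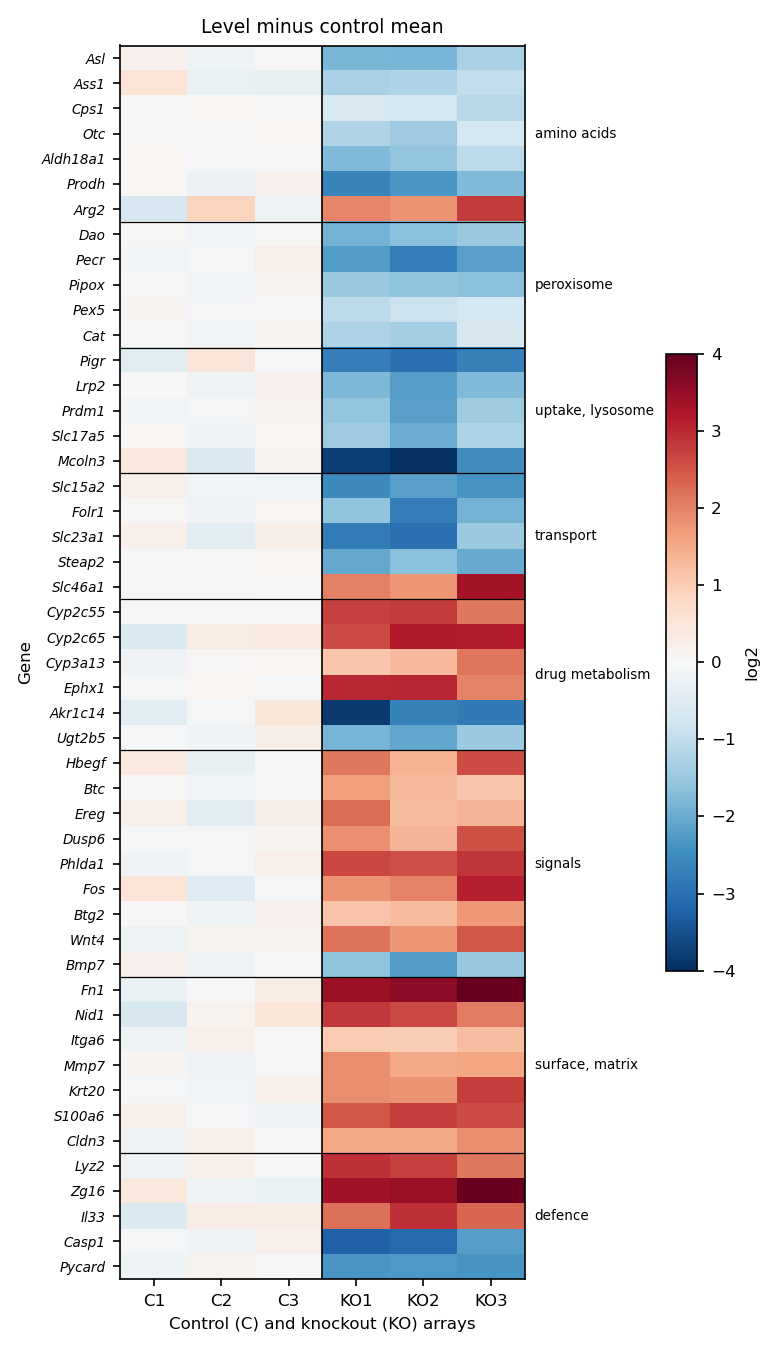
Level minus control mean (colour, log2, red higher and blue lower, cut at -4 and 4) of genes named in the text, grouped by function, in the 3 control (C) and 3 knockout (KO) arrays. Each gene keeps 1 colour over the knockout arrays, including replicate 3, with amino acid, peroxisomal and uptake genes mostly blue and signalling and matrix genes mostly red.

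Growth programmes differed between the knockout arrays. Of 66 ribosome biogenesis factors 3 fell and 0 rose, 4.55% in all, and their medians were 0.18, 0.29 and -0.57 in replicates 1, 2 and 3. With replicate 3 as the sole knockout array 20 fell, and without it 12 rose and 4 fell. Of 74 DNA replication and mitosis genes 4 rose and 2 fell (8 rose without replicate 3), with medians of 0.26, 0.56 and -0.34. E2f8, a repressor of the cell cycle, fell 4.33-fold, and Cdk6, a kinase of the cell cycle, rose 2.49-fold. The 4 that rose also include Ccng1 (2.09-fold) and Cdkn1a, which is counted among the cell death and DNA damage genes too. The ribosome biogenesis and DNA replication lists lay above control in replicates 1 and 2 and below it in replicate 3. Their means over the group therefore describe no single array.

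In 2236 genes every knockout array lay outside the range of the control arrays, with replicate 3 on the other side from replicates 1 and 2. Replicate 3 was the high one in 1320 and the low one in 916. These are descriptions with no test, and in 4 genes all 3 shifts were 2-fold or more. Slc23a4, a relative of the vitamin C carriers, read 7.89, 7.66 and 7.48 in control and 7.17, 7.12 and 10.3 in knockout. Bst1, a surface enzyme that acts on NAD, read 10.7, 10.8 and 11.04 in control and 10.7, 10.2 and 12.4 in knockout. Abhd5, which activates fat breakdown in lipid droplets, read 9.53, 9.53 and 9.41 in control and 9.17, 9.34 and 10.7 in knockout. In these 3 genes replicate 3 stood high. On the other side, Gkn3, a gastrokine, read 9.96, 11.6 and 11.3 in control and 11.8, 12.7 and 6.58 in knockout. Pygl, liver glycogen phosphorylase, read 5.98, 5.54 and 6.04 in control and 7.12, 7.10 and 4.22 in knockout, and Matn2, a matrix protein, 6.94, 6.92 and 6.95 and 7.86, 7.33 and 5.09. In these 3 replicate 3 lay below every control array and replicates 1 and 2 above them.

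Among imprinted and fetal growth genes the replicates again differed in degree. Of 33 measured 5 rose and 3 fell, 18 rose without replicate 3, and the medians were 0.78, 0.76 and 0.11, in the order of the fibroblast markers; with the fibroblast covariate 4 rose and 3 fell. Peg3, a paternally expressed zinc finger gene, was high in all 3 knockout arrays (11.1, 11.6 and 11.5 against 8.98, 8.32 and 9.001 in control) and rose 6.31-fold; its 5 probe sets ranged from -0.04 to 2.66. Afp, the fetal serum protein, read 13.1, 12.9 and 12.98 against 11.4, 10.9 and 11.3 and fell 3.49-fold (-3.16 to -0.18 over its 5 probe sets).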

How the data were processed

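Total RNA of released epithelial cells was biotin-labelled and hybridised to Affymetrix arrays, 1 per sample. The deposited values are log2 levels per probe set, made by the authors with RMA and Partek 6.5 per the submitters' processing notes; the role of each tool is not given in the sources used here. RMA shrinks differences near background, and a fold is therefore "at least" its value where the lower group's mean lay in the dimmest 40% of genes. Groups came from the titles. Of 45101 probe sets, 34945 carried 1 symbol, 932 several and 9211 none, and 13 array controls with a symbol were left out; each of 18193 genes was read by its brightest probe set, and 9010 had more than 1. The range of change over a gene's probe sets is given for some genes only. Column medians were 5.93 to 6.00, 0 arrays were identical, and values were used without further scaling. Arrays give no depth; their number limits the precision, and the median standard error was 0.147.

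Limma 3.58.1 in R 4.3.3, with data.table (version 1.17.8), fitted 3 group means to all 9 arrays (lmFit, eBayes), with two-sided tests and Benjamini-Hochberg adjustment over 18193 genes. The code was tested on simulated data. Named genes are Tfrc, the 10 largest rises and falls, the 12 genes in each direction with the largest least shift over the knockout arrays, up to 4 members with the smallest p per list, and 6 genes each way with replicate 3 opposite. The members, 44 lists (1908 genes measured), markers and rule were chosen with earlier results of these data known. Promoters are RefSeq's, matched by symbol for 14452 genes. Alternatives were other samples, probe set rules, scaling, filters, weights, a replicate block and a fibroblast covariate.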

Additional observations from a re-analysis of the deposited data

How the results depend on the processing

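The counts of 963 genes higher and 1596 lower stayed within 1.5 times of their value with the replicate block (845 and 1559), the mean of all probe sets, cross-matching probe sets left out, the dimmest 40% of genes left out, quantile normalization, replicate 3 as the sole knockout array and the fibroblast covariate (791 and 1170, of which 395 and 589 were among the 963 and 1596). With only the 6 control and knockout arrays 599 were higher and 1056 lower, and with array weights 2771 and 3624. Leaving out 1 array gave 368 to 2328 higher and 568 to 2670 lower, least without control replicate 3 and most without knockout replicate 3; the cause was not tested.

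Of 195 named genes past the threshold, none changed its call with the replicate block, array weights or, for the 179 still tested, the dim genes left out. Calls were lost for 31 genes with the fibroblast covariate, 18 with replicate 3 as the sole knockout array, 9 with 6 arrays, 9 with the mean of probe sets, 1 with quantile normalization and 1 to 25 without 1 array. Without cross-matching probe sets 5 were lost and 3, read by another probe set there, turned: Aldh1l1 was 0.10, Atp1b1 -0.12 and Atp5g1 0.028. The replicate numbers did not pair the arrays: deviations of same-numbered control and knockout arrays correlated at -0.22, 0.34 and -0.01 across genes, and only number 2 correlated best with its own. Array signal near background limits folds of dim genes, and 3 arrays per group limit small changes.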

Other observations

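Genes of 3 further lists passed about as often as genes at large. Of 45 iron-dependent dioxygenases 4 rose and 3 fell (a range of rises from 2 without control replicate 1, 2 or 3 to 12 without knockout replicate 3, a range of falls from 1 without control replicate 1 to 5 without knockout replicate 3). Hif1an, which hydroxylates HIF-1 alpha, read 9.90, 9.64 and 9.87 in control and 8.53, 8.59 and 8.86 in knockout, with no overlap, and fell by 1.14 ± 0.12 (2.20-fold, adjusted p = 0.0013). P4ha1, a collagen prolyl hydroxylase, rose at least 2.42-fold (0.31 to 1.27 over its 2 probe sets). Kdm7a, a histone demethylase, rose 2.41-fold (-0.07 to 1.27 over its 5 probe sets). Of 62 enzymes of DNA methylation and histone modification 6 fell and 0 rose, 9.68% lower against 8.77% of all genes, with a range of falls from 2 without control replicate 3 to 5 without knockout replicate 2 or 3 (or replicate 1 or 3 of rescue). Dnmt3b, which sets new DNA methylation, read 8.60, 8.69 and 8.56 in control and 7.16, 7.40 and 6.87 in knockout and fell by 1.48 ± 0.14 (2.78-fold, adjusted p = 8.8e-04), and Sirt3, a mitochondrial deacetylase, fell 1.79-fold. Of 25 circadian clock genes 2 fell and 1 rose: Dbp, an output factor of the clock, fell 1.66-fold, while Per2 fell by 1.07 ± 0.26 but missed the threshold without control replicate 1, 2 or 3 (or replicate 1 or 2 of knockout) (adjusted p up to 0.11), with changes of -1.07 to -0.02 over its 3 probe sets, and Noct, a nocturnin phosphatase, rose by 1.74 ± 0.38 but missed the threshold without control replicate 2 or 3 (adjusted p up to 0.079).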
